A study of Mus musculus with 21 samples.

Results

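The insulin-like growth factor axis was taken as 10 genes by symbol, the ligands Igf1 and Igf2, the receptors Igf1r and Igf2r and the binding proteins Igfbp2 to Igfbp7, and all 10 were among the 19241 genes listed for the tumours. The choice of the genes used 1 measured value, that Igfbp5 is among the most abundant transcripts, so the level of Igfbp5 is given as a description. Tumours came from MMTV-PyMT mice, in which the mouse mammary tumour virus promoter drives the polyoma middle T oncogene in mammary epithelium, and every group carried this genotype. There were 4 groups of 3 tumours: sedentary week 12, physically active week 12, sedentary week 18 and physically active week 18. The labels do not say what the activity consisted of, what the weeks are counted from, or the strain and age of the mice. Replicates are labelled as biological, with no statement on whether 2 tumours could share a mouse. A further 9 libraries of sorted hematopoietic stem cells (HSC) complete the series of 21, and of these only the 3 of sedentary mice are used, for a side-by-side description at the end.

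In this pathway the ligands Igf1 and Igf2 act through Igf1r, a receptor tyrosine kinase that signals through insulin receptor substrates, phosphoinositide 3-kinase and Akt to growth and survival. Igf2r, the cation-independent mannose 6-phosphate receptor, has no kinase and takes up Igf2 for degradation, while the binding proteins carry the ligands in serum and tissue and set how much of them can reach Igf1r. In the mammary gland, local Igf1 made in the stroma under growth hormone is known for driving duct growth, and Igfbp5 is known for its rise when the gland regresses after lactation.

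Each tumour had 20838963 to 28973775 reads on the listed genes. Values are normalized counts, that is, reads divided by 1 factor per library, and are on 1 scale over the 12 tumours. Several tumours stood apart in markers of other cell types. Active week 12 tumour 3 had a summed adipocyte marker level of 592854 against 2274 to 121865 in the other 11, a B cell sum of 26817 against 59.5 to 207, a T cell sum of 13754 against 204 to 445 and an endothelial sum of 23532 against 3610 to 9118. Its luminal epithelial sum of 62319 was the lowest, the others lying between 73117 and 140726. The skeletal muscle sums were 59447 to 126952 in the 3 sedentary week 12 tumours and 536 to 17514 in the other 9. Sedentary week 18 tumour 1 had the lowest milk protein sum, 8691, the other tumours being at 62809 to 317236. Luminal markers were present in every library, Epcam, an epithelial adhesion molecule, having 6300 to 19140 normalized counts.

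Promoter sequences are shown for the members whose levels the results turn on: Igfbp5, the gene of highest mean normalized count, and the pairs Igf1 with Igfbp6 and Igfbp2 with Igfbp3, which varied together over the tumours. Each is the 250 bases before the start annotated by RefSeq on GRCm38.p6, printed 5′ to 3′ on the strand of the gene. Igfbp5 lies on the minus strand at chr1:72874866-72875115, Igf1 on the plus strand at chr10:87860861-87861110, Igfbp6 on the plus strand at chr15:102143936-102144185, Igfbp2 on the plus strand at chr1:72824230-72824479 and Igfbp3 on the minus strand at chr11:7213924-7214173. For Igfbp2, with several annotated starts, the one nearest the start of the gene in GENCODE is shown. The Igf1 window lies inside the gene as annotated by GENCODE, which starts at chr10:87858265, so its values describe an internal start. Capitals mark matches, on either strand, to TATAAA (the TATA box), CCAAT (the CCAAT box), GGGCGG (the GC box) or CACGTG (an E-box), the last of which contains the shorter letters ACGTG that were also searched.
Igfbp5: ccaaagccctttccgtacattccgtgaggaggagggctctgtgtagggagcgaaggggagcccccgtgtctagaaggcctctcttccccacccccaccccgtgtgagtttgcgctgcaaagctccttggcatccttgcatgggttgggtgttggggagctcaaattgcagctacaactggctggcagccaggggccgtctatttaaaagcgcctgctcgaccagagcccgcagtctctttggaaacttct
Igf1: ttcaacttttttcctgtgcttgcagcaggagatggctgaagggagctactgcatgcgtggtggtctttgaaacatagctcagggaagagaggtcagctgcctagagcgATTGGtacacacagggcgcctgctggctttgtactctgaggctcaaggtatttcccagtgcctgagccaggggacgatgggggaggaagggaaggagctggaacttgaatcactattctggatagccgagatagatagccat
Igfbp6: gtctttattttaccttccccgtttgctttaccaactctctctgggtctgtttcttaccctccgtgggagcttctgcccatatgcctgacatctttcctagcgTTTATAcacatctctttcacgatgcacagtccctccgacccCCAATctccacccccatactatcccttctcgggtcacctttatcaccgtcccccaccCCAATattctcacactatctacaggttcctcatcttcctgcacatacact
Igfbp2: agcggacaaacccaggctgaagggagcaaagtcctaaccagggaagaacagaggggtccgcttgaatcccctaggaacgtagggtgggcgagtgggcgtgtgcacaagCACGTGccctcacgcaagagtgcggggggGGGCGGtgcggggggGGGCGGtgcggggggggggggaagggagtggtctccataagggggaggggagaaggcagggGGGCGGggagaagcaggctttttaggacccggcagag
Igfbp3: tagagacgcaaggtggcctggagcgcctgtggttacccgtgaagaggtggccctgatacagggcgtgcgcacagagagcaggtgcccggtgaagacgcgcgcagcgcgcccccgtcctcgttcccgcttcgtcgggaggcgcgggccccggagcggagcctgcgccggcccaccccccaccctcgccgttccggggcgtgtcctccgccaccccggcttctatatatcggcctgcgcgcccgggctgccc

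No motif of the search was found in the Igfbp5 and Igfbp3 windows. The Igf1 window held 1 CCAAT box, on the opposite strand 142 bases before the start, and the Igfbp6 window held 2, at 107 and 50 bases. The Igfbp6 window also held 1 match to the letters TATAAA, on the opposite strand at 148 bases. CCAAT was present in 34.5% of the windows of 27025 genes and TATAAA in 12.97%. Igfbp2 had 3 GC boxes and 1 E-box, motifs held by 32.9% and 6.05% of windows, and ACGTG was held by 16.6%. GC content was 52.8% for Igf1 and 49.6% for Igfbp6, 67.2% for Igfbp2 and 73.2% for Igfbp3, beside a median of 52.0% over all windows. Igf1 had 5 CpG dinucleotides and Igfbp6 had 7, Igfbp2 had 14 and Igfbp3 had 32, and the median was 6. The window of the other annotated start of Igfbp2 had 56.4% GC and 11 CpG, so the values of this gene depend on the start chosen. Igfbp5 had 58.8% GC and 10 CpG. These matches describe letters and say nothing of binding.

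By level, the axis was a set of abundant binding proteins over scarce ligands. Per kilobase of exon (GENCODE M21 exon lengths), the mean normalized count over the 12 tumours was 41092 for Igfbp5, 1547 for Igfbp7, 930 for Igfbp2, 812 for Igfbp4, 809 for Igf2r, 709 for Igfbp3, 553 for Igfbp6, 89.9 for Igf1, 30.8 for Igf1r and 9.84 for Igf2. Igfbp5 exceeded Igfbp7 in 12 of 12 tumours, and Igfbp7 exceeded Igfbp2 in 10 of 12. The next 5 genes in the order, from Igfbp2 to Igfbp6, did not separate from their neighbours, the higher of each pair leading in 5 to 8 of 12 tumours. Igfbp6 exceeded Igf1 in 11 tumours, Igf1 exceeded Igf1r in 10 and Igf1r exceeded Igf2 in 11. Igf2r exceeded Igf1r per kilobase in every tumour, by 9.13 to 83.9 times, and Igf1 exceeded Igf2 in 11 tumours, by 6.95 to 52.8 times. The exception was active week 18 tumour 1, in which both ligands had 264 reads and Igf1, with the longer exons, was at 0.578 of the Igf2 level.

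**Figure D1:**
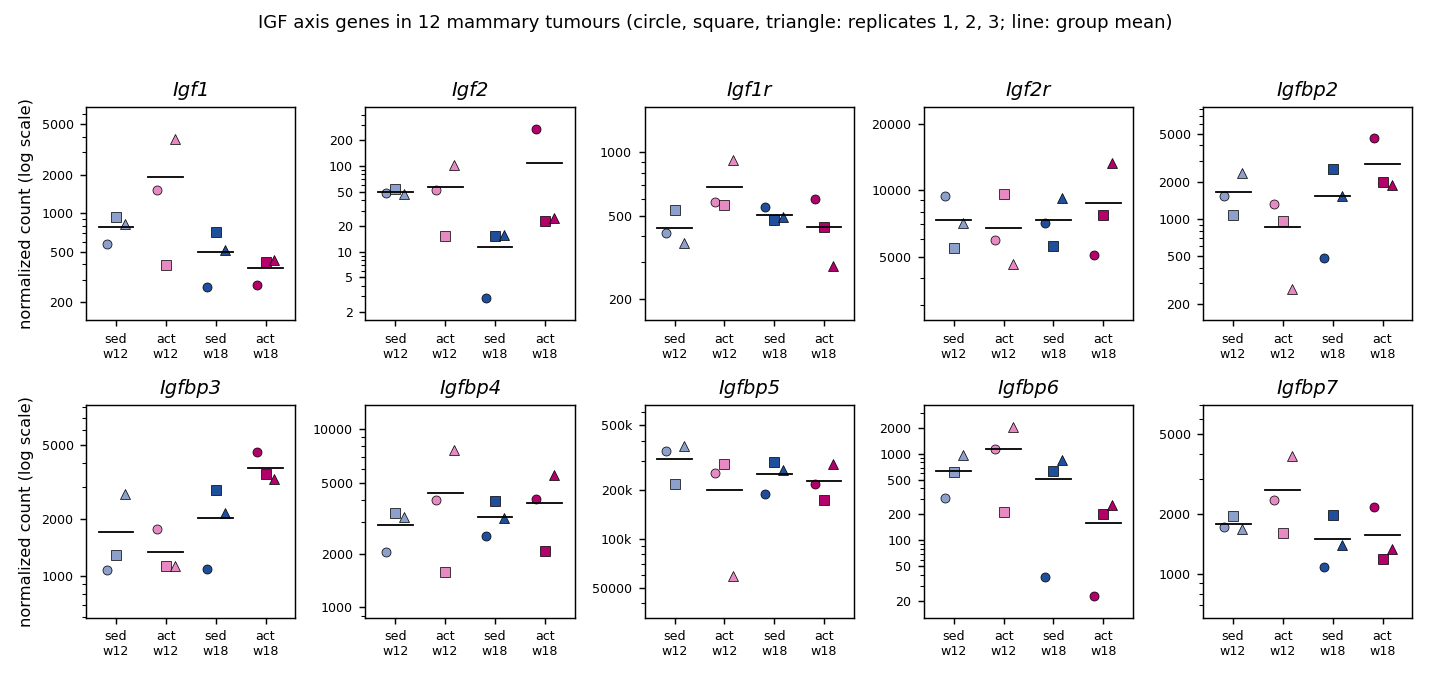
Normalized counts of the 10 members in the 12 tumours on log axes, 1 panel per gene and 1 point per tumour, by group, with a line at each group mean. The groups overlap in most panels, and Igf2, Igfbp6, Igfbp2 and Igf1 spread most widely.

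The members also differed in how much they varied. Between the lowest and the highest tumour, Igf2 ranged 95.6-fold, Igfbp6 91.0-fold, Igfbp2 17.1-fold, Igf1 14.5-fold and Igfbp5 6.30-fold, while Igf2r, the least variable by this measure, ranged 2.87-fold. The SD of log2 levels over the 12 tumours was 1.94 for Igfbp6 and 1.56 for Igf2, which exceeded 97.2% and 94.4% of the 16462 genes with a mean of at least 10. It was 0.41 for Igf1r, near the median of 0.38 for those genes.

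Igf1, the ligand made mainly by stromal cells and liver, had 577, 938 and 830 normalized counts in the 3 sedentary week 12 tumours and 1531, 394 and 3803 in the active ones. At week 18 it had 262, 715 and 516 in sedentary and 275, 416 and 431 in active tumours. Active tumours of week 12 thus held both the highest Igf1 values of the series, in tumours 3 and 1, and 1 of the lower ones, and the groups overlapped at both weeks. The active minus sedentary difference in log2 level was 0.78 at week 12 (SE 0.84, 95% interval -1.33 to 2.90, limma adjusted p = 0.970) and -0.32 at week 18 (SE 0.42, limma adjusted p = 0.871). The week 12 difference was 0.02 without active tumour 3 and 1.65 without active tumour 2, and the week 18 difference was -0.73 without sedentary tumour 1, -0.12 without active tumour 1 and -0.00423 without sedentary tumour 2. The tumours with the most Igf1 were also those with the highest adipocyte sums, 592854 and 121865, and the lowest Igf1 values, 262 and 275, were in the tumours with the lowest adipocyte sums, 2738 and 2274. The part of fat cells in the Igf1 differences was not tested, and in RNA of whole tumours fewer cells of a type cannot be told apart from less RNA per cell.

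Between weeks, Igf1 differed in active tumours by -1.84 in log2 level (week 18 minus week 12, SE 0.71, 95% interval -3.43 to -0.25), from a mean of 1909 ± 1736 (SD, n = 3) to 374 ± 86.4 (SD, n = 3). It did not pass after adjustment over all genes (limma, adjusted p = 0.243). DESeq2 on the recovered reads did call it, with a log2 change of -2.35 and an adjusted p of 0.00792. Without active week 12 tumour 3 the difference was -1.08 by limma. In sedentary tumours the same contrast was -0.74 (SE 0.71, limma adjusted p = 1), and whether it differed from that in active tumours was tested as the interaction, -1.11 (SE 1.00, limma adjusted p = 0.794).

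Igf2, a fetal growth factor expressed from the paternal allele, was scarce. It had 48.0, 53.7 and 46.8 normalized counts in sedentary and 52.8, 15.5 and 103 in active week 12 tumours. At week 18 there were 2.87, 15.2 and 15.9 in sedentary tumours, against 275, 22.7 and 25.0 in active ones. All active week 18 tumours lay above all sedentary ones, and the highest of them held more than 10 times the Igf2 of the other active week 18 tumours. The week 18 difference was 2.44 in log2 level (SE 1.16, 95% interval -0.45 to 5.34, limma adjusted p = 0.824), and 1.29 without active week 18 tumour 1. At week 12 it was -0.16 (SE 0.68, limma adjusted p = 0.985). In sedentary tumours Igf2 was lower at week 18 than at week 12 with no overlap, from 49.5 ± 3.72 to 11.3 ± 7.31 (SD, n = 3 each). That log2 difference of -2.31 (SE 1.02, 95% interval -4.59 to -0.03) had a limma adjusted p of 1. Sedentary week 18 tumour 1, lowest for Igf2, was also the lowest in milk protein genes and among the 2 lowest in adipocyte genes. Without it the difference was -1.61. The share of all genes with no overlap between weeks was not computed.

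In the annotation 2 genes overlap exons of Igf2: Gm49394 on the same strand and Igf2os on the other, and neither is listed in the tumour tables. Whether the counting used strand is not stated.

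Igf1r, the signalling receptor, had 413, 529 and 371 normalized counts in sedentary and 578, 565 and 918 in active week 12 tumours, so that every active tumour exceeded every sedentary one. At week 18 there were 549, 475 and 493 in sedentary and 598, 441 and 286 in active tumours, and the groups overlapped. The log2 difference was 0.63 at week 12 (SE 0.27, 95% interval -0.04 to 1.30, limma adjusted p = 0.970) and -0.25 at week 18 (SE 0.30, limma adjusted p = 0.861). Without active week 12 tumour 3, the tumour rich in lymphocyte and fat cell markers, the week 12 difference was 0.40. The change of the activity effect between the weeks was -0.88 (SE 0.41, limma adjusted p = 0.770). In active tumours Igf1r was lower at week 18 by a log2 difference of -0.66 (SE 0.29, limma adjusted p = 0.276), and the groups overlapped. That difference was -0.38 without active week 18 tumour 3 and -0.43 without active week 12 tumour 3.

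Igf2r, the clearance receptor, had the smallest fold range of the members, while Igf1r had the smallest SD of log2 levels (0.41 against 0.45). It had 9424, 5473 and 7127 normalized counts in sedentary and 5953, 9654 and 4643 in active week 12 tumours, then 7085, 5596 and 9247 in sedentary and 5098, 7762 and 13312 in active week 18 tumours. The groups overlapped at both weeks, with log2 differences of -0.15 (SE 0.35, 95% interval -1.04 to 0.73) and 0.17 (SE 0.41, 95% interval -0.84 to 1.19). These intervals leave room for differences of about a doubling in either direction.

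Igfbp5, which binds extracellular matrix as well as the ligands, had the highest mean normalized count of all listed genes. It took 0.237% to 1.54% of the reads of a library, and per kilobase it ranked 10. Sedentary week 12 tumours had 343574, 217740 and 370259 normalized counts and active ones 253555, 287094 and 58779. At week 18 the counts were 187194, 297854 and 265489 in sedentary tumours, and 218003, 172472 and 289539 in active ones. One tumour, active week 12 tumour 3, held 58779 where the next lowest held 172472, and the groups overlapped. The log2 differences were -0.90 at week 12 (SE 0.67, limma adjusted p = 0.970) and -0.15 at week 18 (SE 0.28, limma adjusted p = 0.911). Without active week 12 tumour 3 the former was -0.17. This tumour also had the lowest luminal epithelial sum, and the part of epithelial content in its Igfbp5 level was not tested.

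Per kilobase, Igfbp5 made up a median of 90.7% of the 6 binding proteins together. It was 84.4% to 94.5% in 11 tumours and 57.1% in active week 12 tumour 3, where Igfbp7 took 18.9%, Igfbp6 10.9% and Igfbp4 10.05%. Among the other 5 binding proteins, Igfbp7 had the largest median share, 34.0%, followed by Igfbp2 with 20.9%. Igfbp7 led in every tumour except those of active week 18. There Igfbp2 led in tumour 1 with 37.3%, Igfbp3 in tumour 2 with 29.3% and Igfbp4 in tumour 3 with 26.7%. In active week 18 tumour 1 Igfbp6 was at 0.308%.

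**Figure D2:**
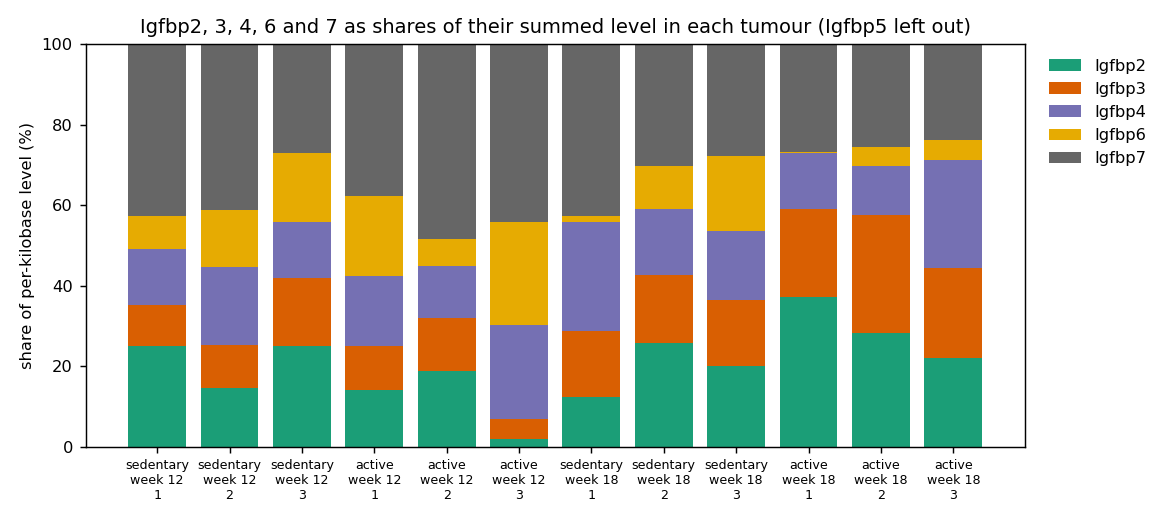
Share of each of 5 binding proteins (all but Igfbp5) in their summed normalized count per kilobase, in percent, 1 stacked bar per tumour. Igfbp3 takes 21.9% to 29.3% in active week 18 tumours and 4.90% to 17.0% in the other 9, and Igfbp6 takes 1.59% and 0.308% in sedentary and active week 18 tumours 1.

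Igfbp3, the main serum carrier of the ligands, was the only binding protein of the 6 whose active and sedentary groups did not overlap at 1 of the weeks. Over all genes, 9.13% did not overlap at week 12 and 13.6% at week 18. Normalized counts of Igfbp3 are given next. Its normalized counts were 1071, 1295 and 2742 in sedentary and 1771, 1127 and 1126 in active week 12 tumours. At week 18 they were 1083, 2871 and 2169 in sedentary tumours and 4575, 3513 and 3278 in active ones. Active week 18 tumours were thus above every other tumour of the series, with a mean of 3789 ± 692 against 2041 ± 901 in sedentary week 18 tumours (SD, n = 3 each). The week 18 difference was 0.99 in log2 level (SE 0.40, 95% interval -0.01 to 1.99, limma adjusted p = 0.824), and 0.59 without sedentary week 18 tumour 1. At week 12 it was -0.25 (SE 0.42, limma adjusted p = 0.970), and the change between the weeks was 1.24 (SE 0.61, limma adjusted p = 0.770). In active tumours the week 18 minus week 12 difference of 1.52 (SE 0.43, 95% interval 0.55 to 2.48) had the smallest p of any member in any comparison (limma adjusted p = 0.193). DESeq2 called it, with a log2 change of 1.498 and an adjusted p of 0.0131.

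Igfbp2, a binding protein that can also engage integrins, was likewise highest in an active week 18 tumour. It had 1538, 1071 and 2377 normalized counts in sedentary and 1337, 958 and 269 in active week 12 tumours, then 481, 2560 and 1541 in sedentary and 4599, 1989 and 1883 in active week 18 tumours. The sedentary and active groups overlapped at both weeks, but active week 18 tumours were all above active week 12 tumours. How many of all genes were likewise without overlap between weeks was not computed. Activity differences in log2 level were -1.17 at week 12 (SE 0.68, limma adjusted p = 0.970) and 1.06 at week 18 (SE 0.72, limma adjusted p = 0.824), and the change between them was 2.23 (SE 1.05, 95% interval -0.13 to 4.58, limma adjusted p = 0.770). Leaving out active week 12 tumour 3 gave -0.48 at week 12, and leaving out sedentary week 18 tumour 1 gave 0.38 at week 18. Between weeks in active tumours the difference was 1.88 (SE 0.74, limma adjusted p = 0.248), and 1.19 without active week 12 tumour 3.

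Igfbp6, which prefers Igf2 over Igf1, had the widest spread of the binding proteins. Sedentary week 12 tumours had 308, 626 and 984 normalized counts and active ones 1141, 211 and 2083. At week 18 sedentary tumours had 37.3, 634 and 866 and active ones 22.9, 200 and 258. The tumours numbered 1 of both week 18 groups were the lowest, and these also had the lowest adipocyte sums, 2738 and 2274. Groups overlapped at both weeks, with log2 differences of 0.47 at week 12 (SE 0.95, limma adjusted p = 0.973) and -1.36 at week 18 (SE 1.54, limma adjusted p = 0.855). The week 18 value was -2.79 without sedentary tumour 1 and -0.27 without active tumour 1. In active tumours the difference between weeks was -2.89 (SE 1.37, limma adjusted p = 0.296), and -1.80 without active week 18 tumour 1.

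Igfbp4, an inhibitory binding protein cut by the protease Pappa, had 1577 to 7597 normalized counts, and Igfbp7, a low-affinity relative found around vessels, had 1090 to 3917. For both, the highest tumour was active week 12 tumour 3, which also had the highest endothelial, adipocyte, T cell and B cell sums. The next highest Igfbp4, 5485 in active week 18 tumour 3, came with an endothelial sum of 3732. For Igfbp7 the next highest, 2351 in active week 12 tumour 1, came with 9118. The part of these cell types in the levels of Igfbp4 and Igfbp7 was not tested. Log2 differences for Igfbp4 were 0.37 at week 12 (SE 0.61) and 0.18 at week 18 (SE 0.41), and for Igfbp7 they were 0.46 (SE 0.35) and 0.06 (SE 0.34). Without active week 12 tumour 3 the week 12 values were -0.16 and 0.12. An exon of Igfbp7 overlaps Polr2b on the opposite strand, so its counts could include reads of that gene if strand was not used.

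**Figure D3:**
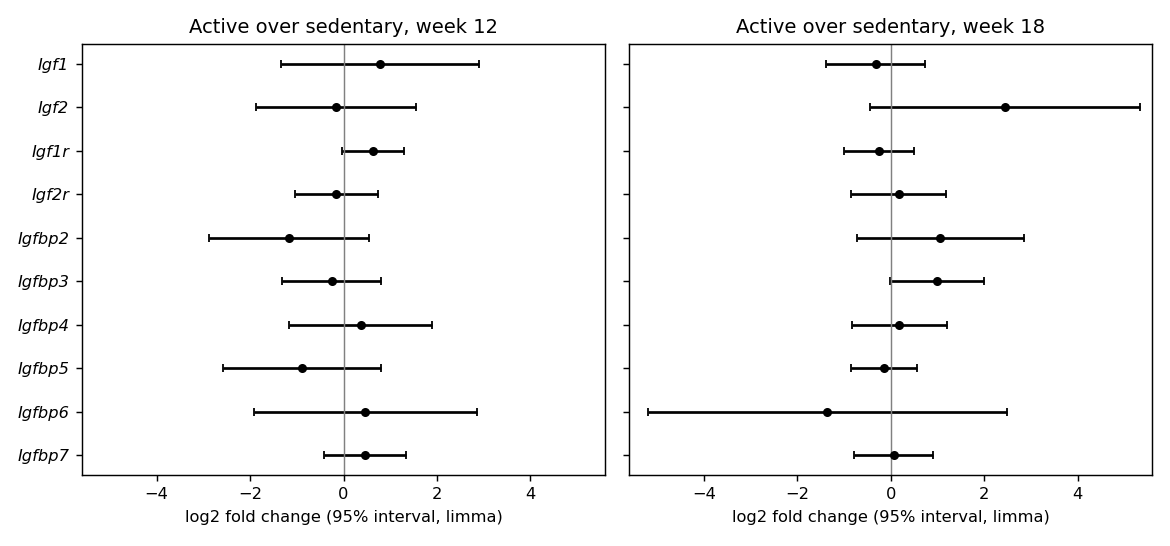
Active minus sedentary difference in log2 level of the 10 members at week 12 and at week 18, with 95% intervals from limma. Every interval includes 0, and those of Igfbp6 and Igf2 at week 18 are the widest.

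Counted over the axis, 0 of 10 members passed the adjusted threshold of 0.05 in any of the 7 comparisons by limma or by edgeR. The share of all genes called by edgeR was 0.397% for activity at week 12 and 0% in every other comparison. Where edgeR called 0% of all genes, its count of 0 members says nothing particular of the axis. For activity at week 12, the share of all 19162 genes called by limma was 0.517% (0.00522% higher and 0.511% lower in active tumours), and for week 18 it was 0% of 18939. The share was 0.0104% for the change of the activity effect between weeks, 0.00520% for week 18 against week 12 in sedentary tumours, 0.0156% for the same in active tumours, and 0.00520% for each of the averages over weeks and over activity. At week 12, 1 member (Igf1r) had groups that did not overlap, beside 9.13% of all genes, with 4.36% higher and 4.78% lower in active tumours. At week 18 there were 2 (Igf2 and Igfbp3), both higher in active tumours, beside 13.6% of all genes, 6.03% higher and 7.57% lower. At an unadjusted limma p under 0.05 there were 0 members for activity at either week (4.09% and 5.97% of all genes), 0 for the change between the weeks (6.33%), 1 for weeks in sedentary tumours (3.64%), 4 for weeks in active tumours (17.7%), 0 for average activity (4.53%) and 2 for the average week difference (13.2%). With an unadjusted p under 0.05, edgeR gave 1 member for activity at week 12, beside 844 of 19162 genes. For week 18 it gave 2, beside 1116 of 18939 genes. DESeq2 gave 1 member in each, beside 1309 and 1377 genes. DESeq2 called 0 members for activity at week 12, at week 18, averaged over the weeks, for its change between weeks and for weeks in sedentary tumours, where it called 1.09%, 0.275%, 0.525%, 0.894% and 0.411% of all genes. For Igf2 at week 18 DESeq2 gave a log2 change of 3.25 but no adjusted p, so that count of 0 does not decide on Igf2. DESeq2 called 2 members, Igf1 and Igfbp3, between weeks in active tumours, where it called 8.74% of all genes, and 1, Igf1, for the average week difference, where it called 3.75%.

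The median log2 difference of the 10 members was 0.11 at week 12 and 0.12 at week 18, beside 0.01 over all genes at both weeks, with 5 and 6 of 10 members higher in active tumours. The authors' deposited table gave no member an adjusted p under 0.05, and the share of all genes it called was not computed. Its smallest p-values were 0.0331 for Igf1r at week 12, adjusted to 0.691, and 0.0192 for Igfbp3 at week 18, adjusted to 0.546. For Igf2 at week 18 the authors' deposited table listed a log2 fold change of 3.32 with a p of 1, which can stand for a missing value.

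Over the 12 tumours, correlations of log2 levels were computed for all 45 pairs of members, with permutation p-values (100000 resamples, two-sided) adjusted over the pairs. Igf1 and Igfbp6 varied together, with Pearson r = 0.84 (permutation p = 0.0010, adjusted 0.0227) and Spearman rho = 0.92 (permutation p = 0.0001, adjusted 0.0045). Within weeks r was 0.93 at week 12 and 0.93 at week 18, over 6 tumours each, and without the 2 tumours farthest from the median of Igf1 it was 0.89. The adjusted permutation p for Pearson r was 0.0591 without sedentary week 18 tumour 1. Igfbp2 and Igfbp3 gave r = 0.81 (permutation p = 0.0003, adjusted 0.0148) and rho = 0.83 (permutation p = 0.0012, adjusted 0.0270). Their r was 0.60 at week 12, 0.95 at week 18 and 0.85 without the 2 tumours farthest from the median of Igfbp2. Igf1 and Igfbp7 gave r = 0.81 (permutation p = 0.0023, adjusted 0.0339) but rho = 0.67 (permutation p = 0.0211, adjusted 0.190). This relation rested on active week 12 tumours 1 and 3, since r was 0.43 without them, and it was 0.96 within week 12 and 0.24 within week 18. These tumours share their libraries and cell makeup between the genes compared, and the tumours come from 4 groups.

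**Figure D4:**
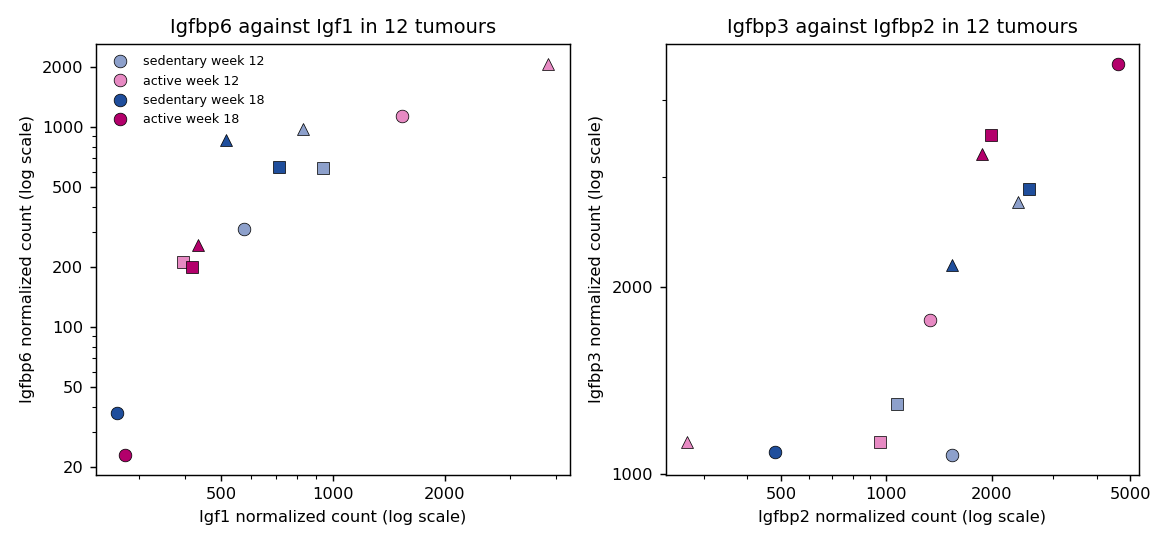
Normalized counts of Igf1 against Igfbp6 and of Igfbp2 against Igfbp3 on log axes, 1 point per tumour, marked by group. Both pairs rise together over the 12 tumours, with Pearson r = 0.84 and r = 0.81 on log2 levels.

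Among 13628 genes with a mean of at least 50 normalized counts, the 5 genes whose log2 levels were most like those of Igf1 over the 12 tumours were Sult1a1 (r = 0.98), Ebf3 (r = 0.98), Slco2b1 (r = 0.97), Pde8a (r = 0.97) and Cped1 (r = 0.97). For Igf2 they were Rnd1 (r = 0.95), Slc2a6 (r = 0.94), Bahcc1 (r = 0.93), Aldh1a1 (r = 0.92) and Fam189a2 (r = 0.92). Those for Igfbp5 were Fam129b (r = 0.94), Btbd9, Zfp239, Elmo3 and Itpkc, all with r from 0.92 to 0.94. These values are descriptions, since the genes were picked for their likeness from many.

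The wider pathway was followed in 5 lists: 8 genes of ligand availability, 28 of insulin and IGF signalling, 9 of the growth hormone and prolactin axis, 12 imprinted genes and 3 Igf2 mRNA-binding proteins. Igfbp1, Irs4 and Igf2bp1 were not listed in the tumour tables, and no gene of these lists passed the limma threshold in any comparison. Of the 27 signalling genes tested, 14 were higher and 13 lower in active tumours at week 12, and 15 were higher and 12 lower at week 18. Between weeks 20 of them were lower at week 18 in sedentary tumours, with a median log2 difference of -0.06 beside -0.02 over all genes. In the availability list, active week 18 tumour 1 had the highest level of Igfals, the acid-labile subunit of the serum complex (1624 normalized counts, others 41.2 to 971), of Pappa, the protease that cuts binding proteins (192, others 0.957 to 97.2), and of Stc1, a stanniocalcin (548, others 28.8 to 138). This was the tumour with the highest Igf2, Igfbp2 and Igfbp3. Summed over the 7 availability genes listed, its level was 4007. That was below 6888 in active week 12 tumour 3 and 4556 in sedentary week 18 tumour 2. Levels of the other genes of that list are not described.

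H19, the imprinted noncoding RNA next to Igf2 that is expressed from the maternal allele, had the smallest p of the pathway genes at week 12. It had 1876, 2417 and 1642 normalized counts in sedentary and 407, 737 and 316 in active week 12 tumours, then 1281, 910 and 1085 in sedentary and 4440, 1487 and 1976 in active week 18 tumours. The groups did not overlap at either week, active tumours being lower at week 12 and higher at week 18. The log2 differences were -2.10 (SE 0.36, limma adjusted p = 0.183) and 1.12 (SE 0.44, limma adjusted p = 0.824), and the change between the weeks was 3.22 (SE 0.60, 95% interval 1.88 to 4.56, limma adjusted p = 0.208). Without active week 18 tumour 1 the week 18 difference was 0.66. With DESeq2 the adjusted p was 2.5e-05 at week 12, 0.239 at week 18 and 5.7e-05 for the change between weeks. Igf2 did not mirror H19 at week 12, where its groups overlapped, and active week 18 tumour 1 was the highest for both.

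The other genes of smallest p in week 12 were Slc38a4, an imprinted amino acid transporter, with a log2 difference of -1.84 (SE 0.70, limma adjusted p = 0.970), and Igf2bp3, an RNA-binding protein, with 1.35 (SE 0.54, limma adjusted p = 0.970). At week 18 they were Ghr, the growth hormone receptor, with -0.83 (SE 0.17, limma adjusted p = 0.686), and Mest, an imprinted gene, with 1.60 (SE 0.73, limma adjusted p = 0.824). Ghr had 2741, 2521 and 2110 normalized counts in sedentary and 1417, 1467 and 1241 in active week 18 tumours, with no overlap, and DESeq2 gave it an adjusted p of 0.0038. Between weeks in active tumours H19 differed by 2.37 (SE 0.42, limma adjusted p = 0.157). Ghr differed by -1.94 (SE 0.50, limma adjusted p = 0.185), its highest value, 13836, being in active week 12 tumour 3, and Meg3, an imprinted noncoding RNA, by -1.80 (SE 0.51, limma adjusted p = 0.193). DESeq2 called H19, Ghr and Meg3 in this comparison, with adjusted p of 1.1e-05, 0.000397 and 0.0210. The adipocyte sums of tumours 1 to 3 were 2738, 44217 and 28262 in sedentary and 2274, 8496 and 6476 in active week 18 tumours. Ghr is abundant in fat, and the part of fat cells in its differences was not tested. For the change of the activity effect between weeks the other 2 were Igf2bp3 with -2.06 (SE 0.68, limma adjusted p = 0.655) and Rictor, a subunit of an mTOR complex, with -0.55 (SE 0.23, limma adjusted p = 0.770).

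In the remaining comparisons no pathway gene was below a limma adjusted p of 0.298. For weeks in sedentary tumours the 3 of smallest p were Slc38a4 (log2 difference -3.36), H19 (-0.85) and Sgce, an imprinted sarcoglycan (-1.51). For average activity they were Mest (1.08), Foxo3, a transcription factor restrained by Akt (-0.28), and Pappa (1.73). For the average week difference they were Meg3 (-1.36), Slc38a4 (-2.63) and Insrr, a relative of the insulin receptor (-2.47), and of these DESeq2 called Meg3 (adjusted p = 0.0129) and Slc38a4 (adjusted p = 0.0352).

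Several marker lists, though not all, moved with the same contrasts. At week 12 all 13 skeletal muscle genes were lower in active tumours, with a median log2 difference of -7.31. Of these 11 passed the limma threshold, but 0 passed with the replicate block or with the spread shared over all 12 tumours. Leaving out a sedentary tumour left 1, 2 and 0 past it for tumours 1, 2 and 3, and leaving out active tumour 3 left 2. Of 12 adipocyte genes none passed, but all 12 were higher in active tumours at week 12 and lower at week 18, with medians of 1.23 and -1.72. Adipocyte sums ranged from 45956 to 63740 in sedentary and 23862 to 592854 in active week 12 tumours, and from 2738 to 44217 and 2274 to 8496 at week 18. No muscle or adipocyte marker was at 0 in any tumour. Between weeks in active tumours, where Igf1 differed by -1.84, the adipocyte median was -4.88. All 10 fibroblast genes (median -1.25), all 10 endothelial genes (-1.43), all 10 T cell genes (-2.61) and all 8 B cell genes (-3.45) were also lower at week 18, and none passed the limma threshold. T cell sums of active tumours 1 to 3 were 407, 377 and 13754 at week 12 and 283, 440 and 308 at week 18. B cell sums were 154, 93.8 and 26817, then 170, 94.4 and 101. The falls in these 2 sums rested on active week 12 tumour 3. Macrophage genes split 5 and 5 (median -0.06), while 6 of 10 luminal (0.22) and 7 of 8 basal genes (0.57) were higher at week 18. Fibroblast sums ranged from 68887 to 151253 in sedentary and 85554 to 141791 in active week 12 tumours, and from 49817 to 122154 and 29878 to 94191 at week 18. The part of these cell types in the values of the axis was not tested.

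**Figure D5:**
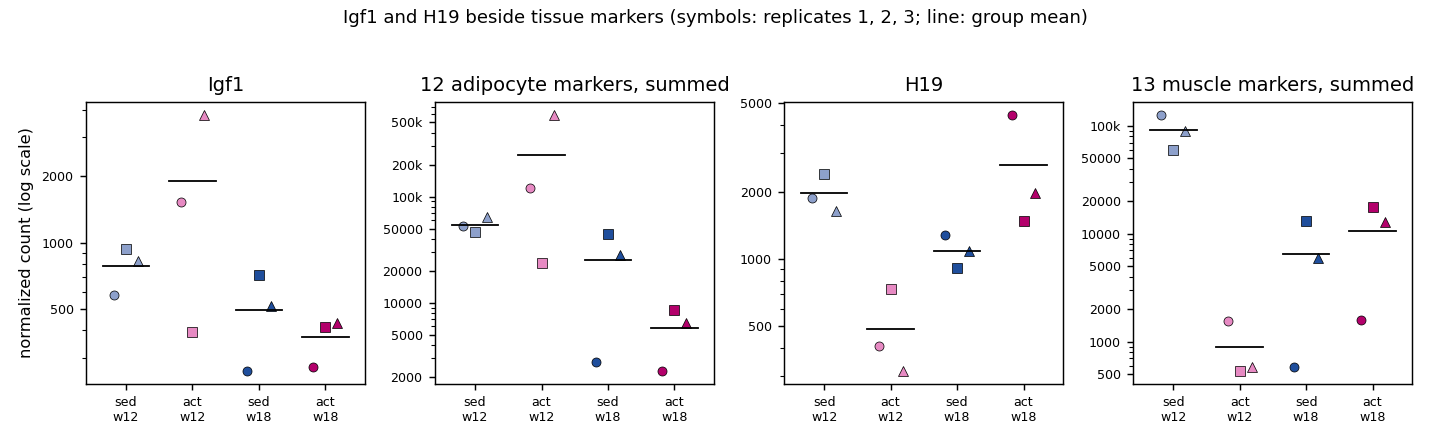
Normalized counts of Igf1, of 12 adipocyte markers summed, of H19 and of 13 skeletal muscle markers summed, on log axes, 1 point per tumour (circle, square and triangle for replicates 1, 2 and 3) with a line at each group mean. Active week 12 tumour 3 is highest for Igf1 and for the adipocyte sum, and the 3 sedentary week 12 tumours are highest for the muscle sum.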

How the data were processed

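RNA of 12 tumours was extracted with TRIzol and made into libraries with a stranded mRNA kit, per the labels' protocols. The build is mm10, per the submitters' processing notes. The aligner, counter and annotation are not given in the sources used here, and DEBrowser is named per the labels. The authors deposited a signal per gene that equals counts divided by 1 factor per library: all values came out as whole reads (100%, tolerance 0.01), although in sedentary week 18 tumour 3 the step, 0.991, is too near 1 for a formal check. The factors match medians of ratios over the 12 tumours. The authors' tables also hold a log2 fold change, a p-value and an adjusted p-value per gene. Listed genes have at least 10 reads in some tumour.

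limma 3.58.1 (lmFit, eBayes; R 4.3.3) was run on log2 of the value plus a pseudocount of 1, keeping genes whose mean reached 1 in some group, with Benjamini-Hochberg adjustment over all of them at 0.05. The pseudocount shrinks the printed log2 differences of low genes such as Igf2. Activity was compared within weeks over 6 tumours, and the other comparisons used 12. Alternatives were edgeR 4.0.16 (quasi-likelihood) and DESeq2 1.42.0 on recovered reads, other scalings, pseudocounts and filters, a replicate block and leaving out each tumour. Only the main limma fit was run on simulated counts, for activity at week 12 and for the change of the activity effect between weeks. Same-numbered week 18 tumours deviated together weakly (correlations 0.164, 0.159 and 0.139), whereas those of week 12 did not (-0.0334, -0.0952 and 0.0922). The labels state no pairing, and whether the numbers pair tumours was not tested, so the block was kept as an alternative. All 10 members were named, with the pathway genes past the threshold or, where none passed, the 3 of smallest p in each comparison. Igfals and Stc1 were named outside this rule. Members and lists were chosen with earlier results of these data known. Promoters are from RefSeq (GRCm38.p6), where all 10 members matched by symbol, and exon lengths from GENCODE M21.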

Additional observations from a re-analysis of the deposited data

Results flagged for a closer look

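H19 differed between active and sedentary tumours in opposite directions at the 2 weeks, with every active tumour below every sedentary one at week 12 and above at week 18. The difference between these effects, 3.22 in log2 level, was tested as an interaction and did not pass after adjustment over all genes (limma, adjusted p = 0.208).

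The 3 libraries of sorted HSC from sedentary week 12 mice, which enter no comparison of the axis, also held signal for 5 members. These are values of another table with its own scaling, so their levels are not compared with tumours. Mean normalized counts were 14356 ± 981 for Igfbp4, 3126 ± 1154 for Igf1r, 168 ± 135 for Igfbp7, 82.7 ± 38.1 for Igf2r and 18.4 ± 3.92 for Igfbp6 (SD, n = 3 each). Igf1, Igf2, Igfbp2, Igfbp3 and Igfbp5 were not listed in that table, which holds 13513 genes.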

How the results depend on the processing

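The count of members past the threshold was 0 in all 7 comparisons, and 147 of 149 counts under the alternatives were also 0. The exceptions came from DESeq2, with 2 members between weeks in active tumours and 1 for the average week difference; the cause was not tested. The fit with the replicate block also called 0 members in each comparison and so changed no call of a member. It was used because same-numbered week 18 tumours deviated together weakly, although the labels state no pairing. Of 1109 values of single genes, 1080 kept their direction and call, 13 passed only under an alternative and 16 changed sign. Igf2 at week 12 was 0.19 with edgeR and 0.18 with DESeq2, and Igfbp7 at week 18 was -0.015 on plain CPM. Leaving out 1 tumour turned signs at week 12 for Igf2 (-0.76 to 0.57), Igf2r (-0.45 to 0.082), Igfbp3 (-0.52 to 0.15), Igfbp4 (-0.16 to 0.97) and Igfbp6 (-0.23 to 1.42). At week 18 it did so for Igf1r (-0.50 to 0.026), Igf2r (-0.19 to 0.51), Igfbp4 (-0.12 to 0.58), Igfbp5 (-0.34 to 0.033) and Igfbp7 (-0.20 to 0.29). Leaving out each tumour gave 0 members past the threshold throughout. Without active week 12 tumour 2, H19 and Ghr passed between weeks in active tumours (limma adjusted p = 0.0472 and 0.0477). The correlations were tried with other pseudocounts, on plain CPM and without each tumour, choices made after seeing the data. In these, r stayed between 0.75 and 0.89 for Igf1 with Igfbp6 and Igfbp2 with Igfbp3, and between 0.60 and 0.96 for Igf1 with Igfbp7. Over all genes the count of 99 at week 12 became 0 with the replicate block, 9 with the spread shared over 12 tumours, 208 with DESeq2 and 9 to 71 without 1 tumour. Groups of 3 limit every comparison, and Igf2, at 3 reads in the lowest tumour, is also limited by depth.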
